A study of Mus musculus with 9 samples.

Results

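The mitochondrial genome of the mouse is a small circle that carries 2 ribosomal RNA genes, some protein genes of the respiratory chain, tRNA genes and a control region, the D-loop. This account covers every CpG cytosine of that genome, taken as all rows on chromosome MT in whole-genome bisulfite sequencing of the nucleus accumbens. It held 435 cytosines listed in at least 1 library, of 31864067 listed over the 19 autosomes, X, Y and MT, and 415 of them were listed in all 9 libraries, of 4445662. They were placed by position into 11 regions (10 genes and the D-loop), and the forward (F) and reverse (R) strands of the reference were kept apart. Regions held 395 of the 435 cytosines, 40 lay outside, and 2 lay in the overlap of ND5 and ND6 and were counted in both.

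The tissue came from male C57BL/6J mice. Per the labels, mice of 8 weeks met an aggressive CD1 retired breeder male each day for 10 days, and the phenotype label was Control in 5 libraries (numbered 2, 3, 4, 5 and 8) and Susceptible in 4 (numbered 2, 3, 6 and 7). That protocol text stands beside the Control libraries as well. The handling of Control mice and the scoring of susceptibility are not stated by the labels. The punches hold all cell types of the region, so a difference in a level can come from a change in the mixture of cells or of molecules as well as from a change at each cytosine, and these cannot be told apart. Each library is labelled separately and was treated as 1 sample.

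Transcription of both mitochondrial strands starts in or beside the D-loop, which also holds the origin of replication of the heavy strand. The 12S and 16S genes encode the RNAs of the mitochondrial ribosome. ND1, ND2, ND4, ND5 and ND6 encode subunits of complex I, CytB encodes a subunit of complex III, and COX1 and COX3 encode subunits of complex IV. Of these genes ND6 alone is transcribed from the opposite strand. Bisulfite converts unmethylated cytosine, and a cytosine that stays unconverted for any reason is read as methylated. Levels below are methylated calls as a percentage of all calls, where a call is the reading of a cytosine in 1 read.

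Mitochondrial depth was 913027 to 2038090 calls per library, over 416 to 433 listed cytosines, with a median of 1361 to 3106 calls at a listed cytosine. Mitochondrial calls per 1000 autosomal calls were 3.35 ± 0.549 in Control and 3.56 ± 0.395 in Susceptible libraries (SD, n = 5 and 4; exact two-sided permutation test, p = 0.540). The difference of 0.212 ran from 0.0393 without Control 8 to 0.365 without Control 2. Over cytosines listed in all 9 libraries it was 1.42, on a larger base. Autosomal calls were far fewer there (in Control 2, 122147833 in place of 376983848) and mitochondrial ones nearly as many (1493349 in place of 1493546). None of these differences passed the threshold. Autosomal calls were more in every Susceptible library (425430543 to 561774919) than in any Control library (307463967 to 422021584). Control 5 and Control 8 stood apart from the others: 26 and 34 of the 415 cytosines were at 0% there, against 0 to 8 in the other 7 libraries. They also had the fewest mitochondrial calls, 913027 and 1122737, though the cytosines at 0% had up to 1351 and 1330 calls there. Repeated entries, 4 and 8 over all chromosomes, occurred in these 2 libraries only, and the first of each was kept. The cause of their difference was not tested. Several mitochondrial results are therefore also given without these 2 libraries. The comparison of mitochondrial with autosomal calls and that of nuclear windows below were not run without them.

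Coverage was uneven along the genome. No cytosine was listed between positions 6432 and 9345 (2912 bases, holding the rest of COX1, all of COX2, ATP8 and ATP6, and most of COX3), nor between 9944 and 10998 or between 11461 and 12087. COX3 had no listed forward cytosine and 2 reverse cytosines. The nuclear pseudogene Gm10925 on chromosome 1 (24613971 to 24614651, mm10), a copy of ATP6, had 0 listed cytosines in every library. Mitochondrial ATP6 had none either, so this locus says nothing about nuclear copies of the regions that were read. Such copies were not examined.

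Both strands of the mitochondrial genome read higher in Susceptible libraries, the forward strand more so. On the forward strand, levels were 5.87%, 3.90%, 5.88%, 5.98% and 5.71% in Control libraries 2, 3, 4, 5 and 8. The Susceptible libraries 2, 3, 6 and 7 gave 30.9%, 30.1%, 22.2% and 18.97%. The groups did not overlap, and the lowest Susceptible library was well above the highest Control library. Group means were 5.47% ± 0.880 and 25.5% ± 5.88 (SD, n = 5 and 4), a difference of 20.1 percentage points.

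On the reverse strand the Control levels were 3.12%, 2.04%, 2.68%, 2.82% and 2.21%, in the same order, and the Susceptible levels 10.1%, 10.9%, 7.81% and 6.53%. Means were 2.58% ± 0.444 and 8.84% ± 2.03, and again no library of one group reached into the other. The exact two-sided permutation test over the 126 ways to assign 9 libraries to groups of 5 and 4 gave p = 0.00794 on each strand (adjusted over the 2 strands, 0.00794), which is the smallest p this design allows. Susceptible 7 was the lowest of its group in 20 of 20 region and strand pairs. The highest was Susceptible 3 in 14 pairs and Susceptible 2 in 6. Control 3 was the lowest Control library in 14 pairs.

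A class of nuclear DNA that is also mostly unmethylated did not read higher. In 16527 autosomal windows of 1000 bases with 80 or more listed cytosines, as in CpG islands, the forward level was 11.4% ± 0.602 in Control and 10.7% ± 0.312 in Susceptible libraries (exact permutation test, adjusted p = 0.143). The reverse level was 11.9% ± 0.953 and 11.2% ± 0.288 (adjusted p = 0.151). Without Control 3, the highest library on both strands, the differences shrank from -0.656 to -0.415 points (forward) and from -0.760 to -0.367 points (reverse).

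The difference was found in nearly every region that could be tested. Of 22 region and strand pairs, 20 had calls in all 9 libraries, and in 19 of these the 2 groups of libraries did not overlap, Susceptible being higher (exact permutation test, adjusted p = 0.00835 for each). The exception was COX3 on the reverse strand. Without Control 5 and Control 8 together, 18 of 20 passed, ND2 on the reverse strand then having an adjusted p of 0.0602.

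**Figure D1:**
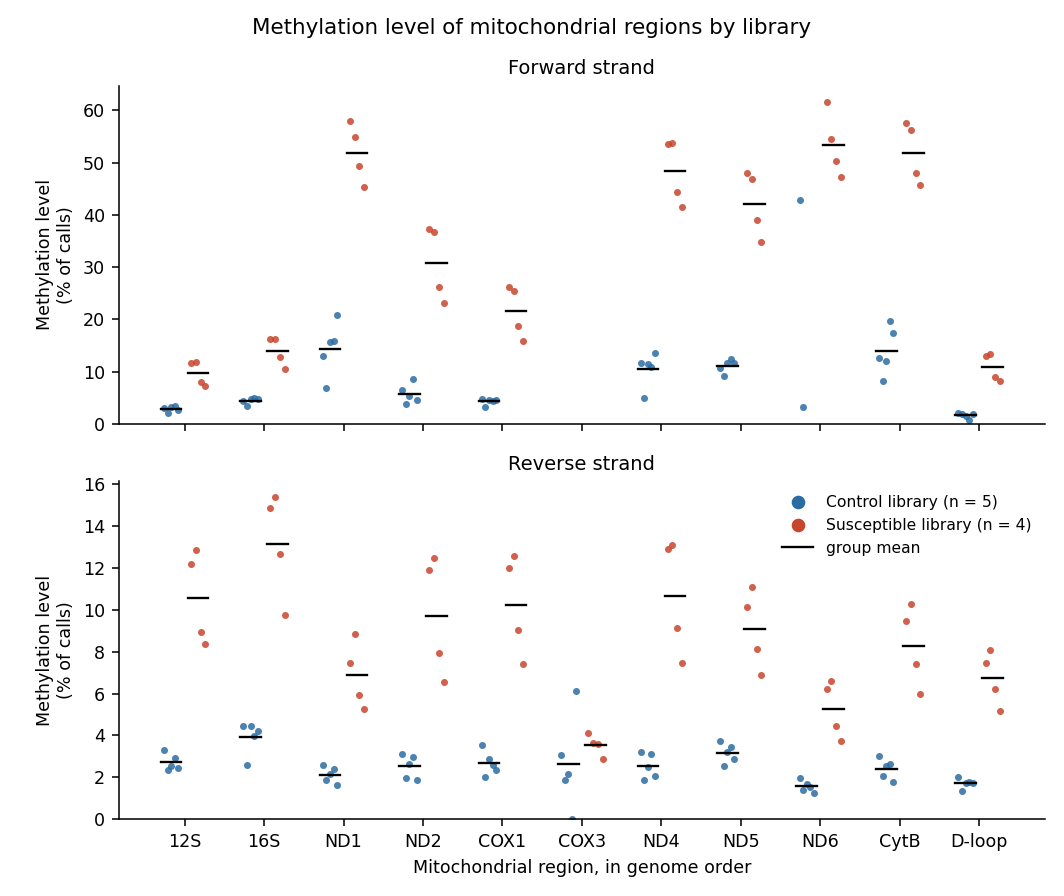
Methylation level (percentage of calls, linear axes that differ between the strands) of each mitochondrial region in each library, forward strand above and reverse strand below. Dots are libraries (blue Control, red Susceptible) and bars are group means, drawn where every library of the group had calls. In 19 of the 20 pairs with calls in every library the red dots all lie above the blue ones, and COX3 on the reverse strand overlaps.

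The ribosomal RNA genes had the lowest forward levels of any genes that could be tested on that strand in the Susceptible libraries. 12S (positions 70 to 1024) went from 2.89% ± 0.568 to 9.72% ± 2.43 on the forward strand and from 2.72% ± 0.400 to 10.6% ± 2.25 on the reverse strand. 16S (1094 to 2675) went from 4.46% ± 0.634 to 14.0% ± 2.73 and from 3.94% ± 0.781 to 13.2% ± 2.55. Pooled over calls, the strands of both genes read nearly alike. With each cytosine weighted equally the difference was 13.6 points in place of 6.83 on the forward strand of 12S, and in 16S it was 15.9 in place of 9.22 on the reverse strand, above the forward one (11.9). 16S had the highest reverse level of all regions in both groups.

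Complex I genes with calls on both strands in every library read higher on the forward strand. ND1 (2751 to 3707) had forward levels of 13.0%, 6.94%, 15.6%, 15.8% and 20.8% in Control libraries 2, 3, 4, 5 and 8, and of 58.0%, 55.0%, 49.3% and 45.3% in Susceptible libraries 2, 3, 6 and 7. On the reverse strand the same gene read 2.60%, 1.89%, 2.15%, 2.38% and 1.65% in Control and 7.44%, 8.83%, 5.93% and 5.25% in Susceptible libraries. Each library therefore read several times higher on the forward than on the reverse strand of ND1, in both groups.

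ND4 (10167 to 11544) behaved alike, with forward means of 10.6% ± 3.23 and 48.3% ± 6.30 and reverse means of 2.56% ± 0.597 and 10.6% ± 2.81. In ND5 (11742 to 13565) the forward level went from 11.1% ± 1.24 to 42.2% ± 6.35 and the reverse level from 3.16% ± 0.468 to 9.06% ± 1.89. ND2 (3914 to 4951) was lower on the forward strand, 5.74% ± 1.86 and 30.9% ± 7.23, with 2.52% ± 0.575 and 9.71% ± 2.91 on the reverse strand. ND2 had few listed cytosines, 8 on each strand.

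ND6 (13552 to 14070) could be tested on the reverse strand only, where it had the lowest level of all 10 reverse regions that passed, 1.57% ± 0.275 in Control and 5.25% ± 1.38 in Susceptible libraries. Its forward strand had listed cytosines in 6 libraries. There it read 61.6%, 54.4%, 50.2% and 47.3% in Susceptible libraries 2, 3, 6 and 7, from 262 to 808 calls. Control 2 had 14 calls there, at 42.9% (95% Wilson interval 21.4 to 67.4), and Control 3 had 94, at 3.19% (1.09 to 8.97). These intervals cover counting error only. With calls in only 2 Control libraries, no test was made.

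CytB (14145 to 15288), of complex III, resembled ND1. Its forward levels were 12.7%, 8.26%, 12.1%, 19.7% and 17.4% in Control libraries 2, 3, 4, 5 and 8 and 57.6%, 56.2%, 47.9% and 45.8% in Susceptible libraries 2, 3, 6 and 7. Its reverse means were 2.41% ± 0.507 and 8.29% ± 1.96. In Susceptible libraries CytB and ND1 shared the highest forward level of any tested region, 51.9% in each, and did not differ beyond their spread (SD 5.89 and 5.67).

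COX1 (5328 to 6872), the core subunit of complex IV, was intermediate. Its forward level went from 4.33% ± 0.641 to 21.6% ± 5.07 and its reverse level from 2.67% ± 0.585 to 10.2% ± 2.45. COX3 (8607 to 9390) read 3.09%, 1.86%, 2.15%, 0% and 6.14% in Control libraries 2, 3, 4, 5 and 8, on the reverse strand, and 4.11%, 3.65%, 3.59% and 2.88% in Susceptible libraries 2, 3, 6 and 7. Control 8 was above every Susceptible library there, and Control 5, with 0 of 355 calls methylated, was below all others, which allows a level of up to 0.845% (3 calls of the total). The 2 cytosines had 355 to 1239 calls per library and the group means did not differ past the threshold (2.65% ± 2.25 and 3.56% ± 0.507, exact permutation test, adjusted p = 0.5). Without Control 8 the difference was 1.79 points in place of 0.914, still short of the threshold (adjusted p = 0.0571), and without Control 5 it was 0.253.

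The D-loop (15423 to 16299) had the lowest Control level on the forward strand. It read 2.05%, 1.95%, 1.55%, 0.798% and 1.93% in Control libraries 2, 3, 4, 5 and 8 there, and 13.1%, 13.3%, 8.93% and 8.21% in Susceptible libraries 2, 3, 6 and 7. On the reverse strand it read 2.003%, 1.36%, 1.71%, 1.79% and 1.73% in Control and 7.46%, 8.07%, 6.23% and 5.15% in Susceptible libraries. The groups were apart on both strands. The ratio of group means was 6.58 on the forward strand, which rested on 1766 to 3695 calls per library, and 3.91 on the reverse strand, which had 63756 to 131219. Of 11 forward cytosines in the D-loop only 5 were listed in all 9 libraries, and over these 5 alone the difference was 5.41 percentage points in place of 9.23. With each listed cytosine weighted equally it was 22.6 points. In both the 9.23 and the 22.6 points each library contributed the cytosines it listed, which were not the same ones in every library. The size of the forward difference thus depends strongly on the cytosines and weights used, and the 2 cannot be told apart in the 22.6 points.

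Within the D-loop the 16 reverse cytosines were not alike. Closest to the start, 43 bases in, the means were 0.801% ± 0.496 and 1.59% ± 0.539 and the groups overlapped. From 278 to 443 bases in, the Susceptible means lay between 3.69% and 5.74%. The 4 cytosines from 528 to 589 bases in were higher, at 10.3%, 10.01%, 8.10% and 14.0%, with Control means of 2.06%, 3.51%, 1.57% and 2.33%. Toward the end, at 829 and 860 bases, Susceptible means were 3.37% and 2.45%, the last again overlapping Control. At 14 of the 16 cytosines every Susceptible library was above every Control library, against 213 of 223 reverse cytosines of the whole mitochondrial genome. The share over all cytosines listed in every library was 0.28%. The count is thus not particular to the D-loop.

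**Figure D2:**
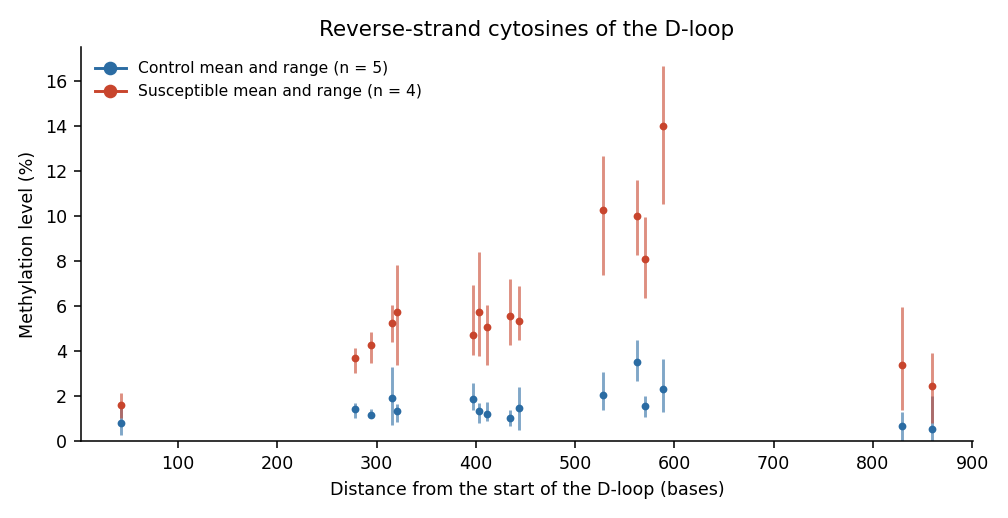
Level (%) of each of the 16 reverse-strand cytosines of the D-loop against its distance from the start of the region (bases). Points are group means and vertical lines run from the lowest to the highest library of the group (blue, 5 Control; red, 4 Susceptible). Susceptible levels are highest from 528 to 589 bases in, and the first and last cytosines overlap Control.

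Whether any region differed from the rest of its own strand was tested with the log2 ratio of the region's level to that of all other mitochondrial cytosines of the strand. None of 19 pairs passed (COX3 was left out, being at 0% in Control 5; exact permutation test, smallest adjusted p 0.0603), with 9 at an unadjusted p under 0.05. On the forward strand the contrasts, Susceptible minus Control, ran from -0.68 in 16S to 0.55 in the D-loop, and on the reverse strand from -0.33 in ND5 to 0.31 in ND4. The adjusted p was 0.0603 for 16S, ND5 and ND4 in these and 0.219 for the D-loop. The result depended on the weighting. Where each cytosine counted equally, in place of each call, 4 pairs passed: COX1 forward (0.47), ND5 forward (-0.62), ND5 reverse (-0.31) and CytB forward (-0.38). 16S forward then changed sign, to 0.07. Each library averaged the forward cytosines it listed, of 211 listed in any and 192 in all 9 libraries, so the sets differed as well.

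The gap between the strands was compared at the 192 CpGs listed on both strands in every library. The forward level divided by the reverse level was 1.81, 1.84, 2.10, 2.01 and 2.47 in Control libraries 2, 3, 4, 5 and 8, and 2.95, 2.68, 2.74 and 2.81 in Susceptible libraries 2, 3, 6 and 7. Every Susceptible ratio was above every Control ratio. The difference of the log2 ratios was 0.46 (exact permutation test, p = 0.0159). It did not hold when each CpG was weighted equally, where it was -0.10 (exact permutation test, p = 0.325).

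Counted by CpG, the forward cytosine had the higher mean at 152 of the 192 CpGs in Control and at 160 in Susceptible libraries. In ND1 this was so at 23 of 23 CpGs in both groups, and in ND4 at 9 of 9. In 16S it was so at 19 of 36 CpGs in Control and 15 of 36 in Susceptible libraries. The median gap, forward minus reverse, was 5.73 to 12.4 percentage points in Control and 37.2 to 44.6 in Susceptible libraries over ND1, ND4, ND5 and CytB. In 16S it was 0.0534 and -2.78 points.

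By region, the ratio of the forward to the reverse level was tested in the 9 regions with calls on both strands in every library, a comparison chosen after the data were seen. It was higher in Susceptible libraries in 4 of them (exact permutation test, adjusted p = 0.0357 for each): ND2 (2.26 ± 0.406 and 3.23 ± 0.248), COX1 (1.65 ± 0.228 and 2.11 ± 0.0787), ND5 (3.55 ± 0.413 and 4.70 ± 0.331) and the D-loop (0.983 ± 0.357 and 1.61 ± 0.135). In the genes with the largest ratios, ND1 and CytB, the values were 7.04 ± 3.41 and 7.74 ± 1.07, and 6.04 ± 2.53 and 6.42 ± 0.919 (adjusted p 0.545 and 0.579). With 1 library left out their log2 differences ran from 0.0486 to 0.49 and from 0.0481 to 0.37, and without Control 5 and Control 8 they were 0.59 and 0.57 (exact permutation test, adjusted p 0.129 and 0.0514). No region passed with each cytosine weighted equally. None passed with any 1 library left out either. With a Control library left out the 4 regions were at the smallest p that 4 against 4 libraries allow (0.0286, adjusted 0.0643). With a Susceptible library left out only ND5 was at the smallest p (0.0179). The adjusted p of the 4 regions was then 0.107 to 0.161 (exact permutation test). Over all leave-outs the log2 difference was 0.47 to 0.62 in ND2 (0.53 over all libraries), 0.30 to 0.44 in COX1 (0.37), 0.33 to 0.46 in ND5 (0.41) and 0.54 to 0.96 in the D-loop (0.80). On the scale of log2 odds 5 regions passed, ND4 with them (0.88 in place of 0.21, adjusted p = 0.0286). The ratio there was 1.02 in place of 0.25 in ND1 and 0.92 in place of 0.17 in CytB (adjusted p = 0.0714 for both), and with a minimum of 100 calls it was 0.95 in CytB (adjusted p = 0.179). Over cytosines listed in all 9 libraries the D-loop no longer passed, with a log2 difference of 0.31 in place of 0.80.

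The number of forward calls itself differed between the groups, which bears on any level pooled over calls. Forward calls made up 18.2%, 15.5%, 17.3%, 16.9% and 15.8% of mitochondrial calls in Control libraries 2, 3, 4, 5 and 8, and 22.1%, 21.9%, 20.5% and 19.5% in Susceptible libraries 2, 3, 6 and 7 (exact permutation test, p = 0.00794). The groups did not overlap. Its part in the level differences was not tested.

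Forward calls per 100 reverse calls, also looked at after the data were seen, separated the groups in 5 of 9 regions. ND1 had 1.84, 1.17, 1.67, 1.08 and 1.12 in Control libraries 2, 3, 4, 5 and 8 and 6.07, 5.32, 3.86 and 3.49 in Susceptible libraries 2, 3, 6 and 7, a ratio of means of 3.41. CytB went from 2.15 ± 0.442 to 6.77 ± 1.81, ND5 from 14.0 ± 3.29 to 31.4 ± 6.10 and ND4 from 1.67 ± 0.377 to 3.10 ± 0.336 (exact permutation test, adjusted p = 0.0179 for these 4 genes). COX1 went from 37.1 ± 5.71 to 53.2 ± 3.15 (adjusted p = 0.0286). The first 4 of these genes were also the 4 with the highest forward levels in Susceptible libraries among these 9 regions. The strand balance of 12S (63.0 ± 4.80 and 62.9 ± 1.81, adjusted p = 0.976), 16S (161 ± 10.1 and 168 ± 3.36, adjusted p = 0.235), ND2 (10.9 ± 1.84 and 13.4 ± 1.09, adjusted p = 0.0952) and the D-loop (2.47 ± 0.393 and 2.76 ± 0.0861, adjusted p = 0.268) did not pass. With any 1 Control library left out the 5 regions had an unadjusted p of 0.0286 each, the smallest that 4 against 4 libraries allow. The adjusted p was then 0.0514, and none passed. The log2 ratio was about as large, 1.69 to 1.88 in ND1 (1.77 over all libraries) and 1.55 to 1.70 in CytB (1.64).

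**Figure D3:**
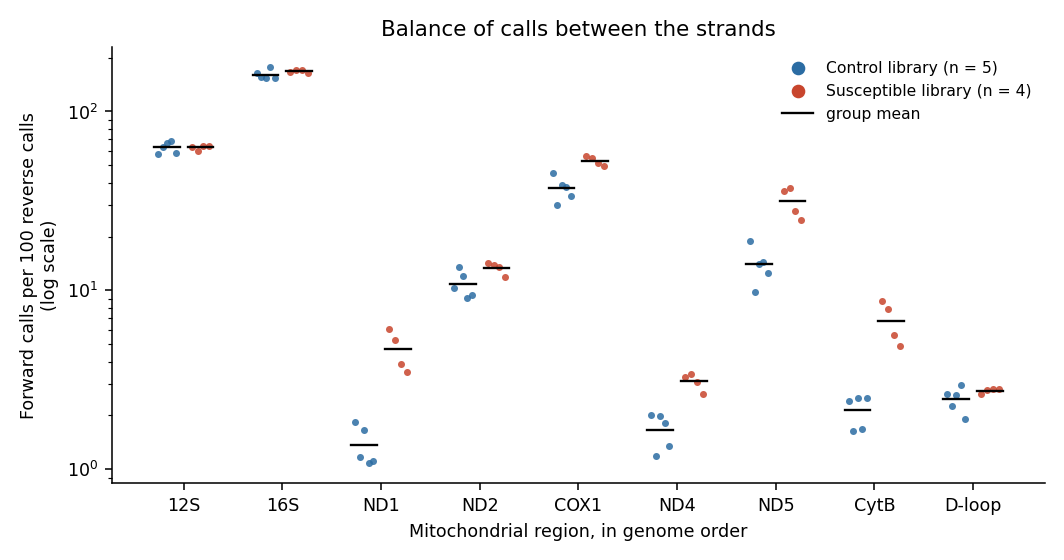
Forward calls per 100 reverse calls (log axis) in each of the 9 regions with calls on both strands in every library. Dots are libraries (blue, 5 Control; red, 4 Susceptible) and bars are group means. ND1, COX1, ND4, ND5 and CytB have every red dot above every blue one, and 12S, 16S, ND2 and the D-loop overlap.

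Forward calls were also split by state. Methylated and unmethylated forward calls per 1000 reverse calls both follow from the forward level and the call ratio. No test of the methylated calls is therefore given, and that of the unmethylated ones is not independent of that level and ratio. Group means of the methylated calls differed by 3.28-fold in 16S to 12.6-fold in ND1. Unmethylated forward calls per 1000 reverse calls passed in none of 9 (exact permutation test), with 3 regions at an unadjusted p under 0.05. In ND1 they went from 11.8 ± 3.15 to 22.04 ± 3.19 and in CytB from 18.5 ± 3.85 to 31.8 ± 4.79, with the groups apart in both (adjusted p = 0.0714). ND5 went from 124 ± 28.9 to 179 ± 16.3, with overlap (adjusted p = 0.0952). In the D-loop the unmethylated calls were 24.3 ± 3.96 and 24.6 ± 1.41, while the methylated ones went from 0.398 ± 0.112 to 2.99 ± 0.676.

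**Figure D4:**
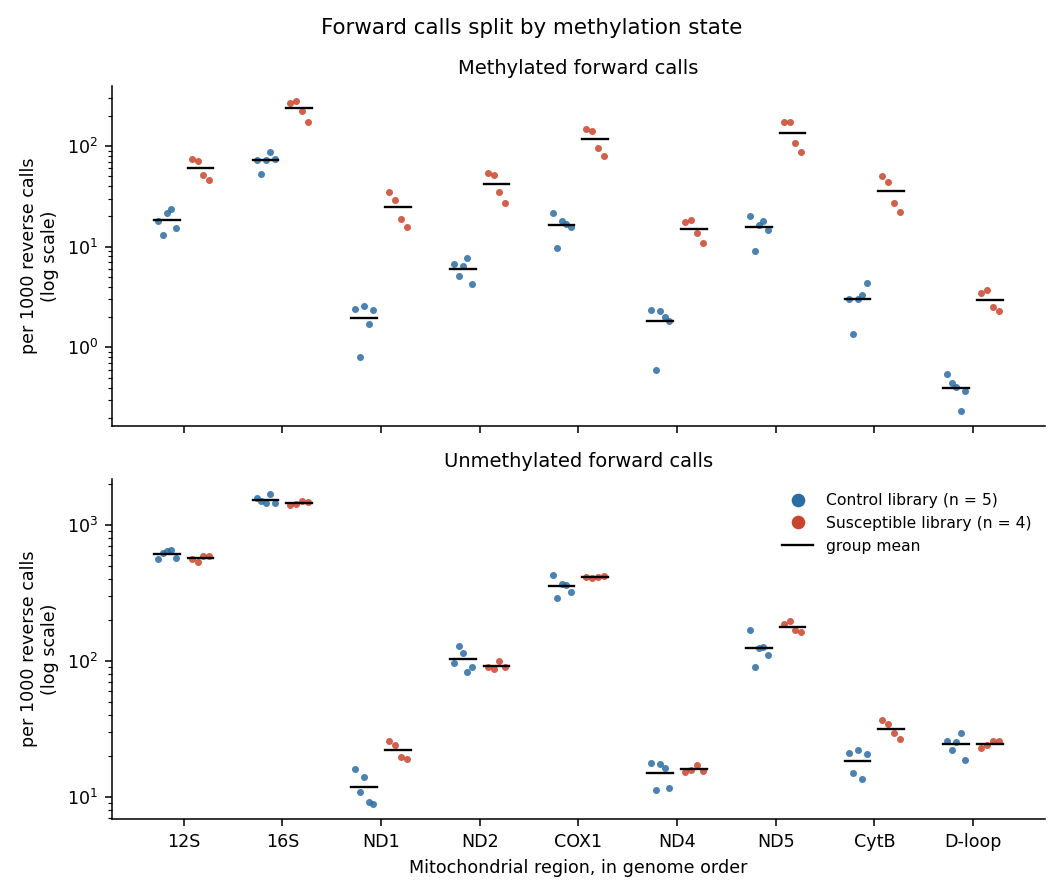
Methylated (above) and unmethylated (below) forward calls per 1000 reverse calls, on log axes, in each of 9 regions. Dots are libraries (blue, 5 Control; red, 4 Susceptible) and bars are group means. Methylated calls have the groups apart in all 9 regions, and unmethylated calls only in ND1 and CytB.

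At single cytosines the same direction was found almost throughout. Every Susceptible library was above every Control library at 172 of 192 forward and 213 of 223 reverse cytosines, and at none was every one below. Over all 4445662 cytosines of the genome listed in every library, 0.28% were apart in the higher direction and 1.3% in the lower one. Mitochondrial cytosines have far more calls than nuclear ones, so their levels scatter less from counting and the shares are not on an equal footing. Among the 20 forward and 10 reverse mitochondrial cytosines that overlapped, the highest Control library was Control 5 or Control 8 at 19 and 7. Without these 2 libraries 190 of 192 and 219 of 223 were apart. Leaving out the libraries behind most of the overlap can only raise this count. Groups of fewer libraries are also apart more often by chance, and the share over the genome was not counted without these 2.

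No single cytosine passed after adjustment over the genome. The quasi-binomial logistic model called 0 of 4445662 cytosines, 0% of them higher, and 0 of the 415 mitochondrial ones, whose smallest adjusted p was 0.454. At an unadjusted p under 0.05 it had 190 forward and 220 reverse mitochondrial cytosines, all higher in Susceptible libraries, against 2.49% of all cytosines in that direction. Counted in either direction, 9.47% of nuclear cytosines were under this p. A least-squares fit on log2 odds with the formulas of limma also called 0. It had 182 and 204 at an unadjusted p under 0.05, against 5.70% of nuclear cytosines in either direction. The spread between libraries of a group was wide against counting error: the median dispersion (1 where calls scatter as independent draws) was 15.3 at mitochondrial and 3.08 at nuclear cytosines. For the same spread in level the dispersion grows with the number of calls. Mitochondrial cytosines had far more calls, so the 2 values do not show which levels vary more between libraries.

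The size of the difference varied along the genome. Forward cytosines had a median group mean of 7.24% in Control and 34.3% in Susceptible libraries, and reverse cytosines of 2.41% and 9.11%. The median ratio of group means was 3.92 on the forward strand (quartiles 2.89 and 5.24) and 3.46 on the reverse strand (2.95 and 4.31). The strands thus differed more in level than in ratio.

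**Figure D5:**
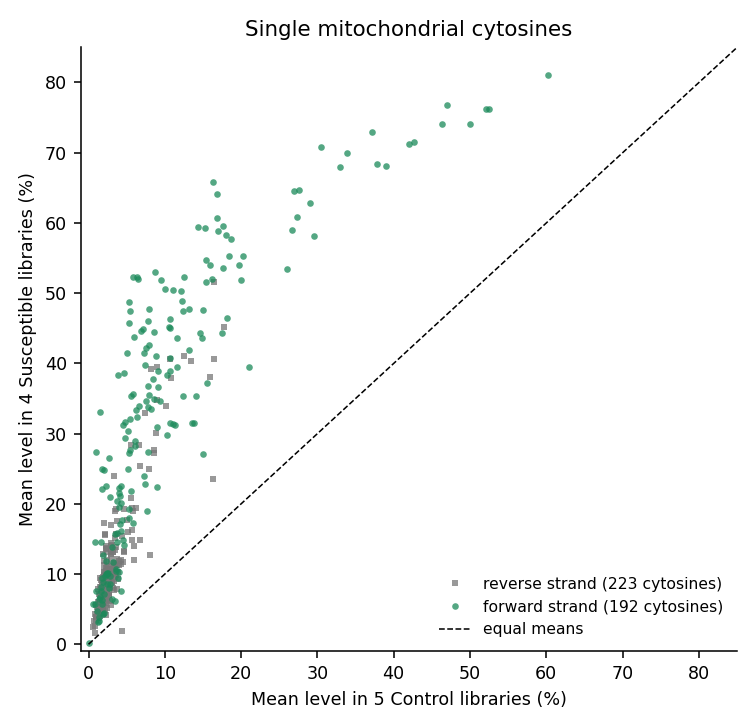
Mean level in the 4 Susceptible libraries against the mean in the 5 Control libraries (both %), for 192 forward (green circles) and 223 reverse (grey squares) mitochondrial cytosines. The dashed line marks equal means. All forward and 222 of 223 reverse cytosines lie above it, and the forward cytosines reach 81.0%.

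The 3 forward cytosines with the highest means over all 9 libraries lay in ND5 and CytB. Position 12395 in ND5 read 60.2% ± 5.79 in Control and 81.0% ± 4.26 in Susceptible libraries. Positions 14711 and 14681 in CytB read 52.4% ± 5.22 and 52.0% ± 12.4 in Control and 76.2% ± 2.76 and 76.2% ± 3.62 in Susceptible libraries. These positions were thus high in Control libraries too, and position 12395 had 189 to 353 calls in each Control library and 1252 to 2530 in each Susceptible library.

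The widest forward differences were in ND1 and in the tRNA gene for glutamate. Position 3140 in ND1 read 31.6%, 12.2%, 18.8%, 19.2% and 0% in Control libraries 2, 3, 4, 5 and 8, and 67.9%, 67.3%, 69.2% and 58.8% in Susceptible libraries 2, 3, 6 and 7. The neighbouring position 3150 had means of 16.8% ± 14.9 and 64.1% ± 5.37. Position 14094 in the tRNA gene for glutamate went from 5.86% ± 6.48 to 52.3% ± 10.02. Control calls at these 3 positions were few, 25 to 122 per library, so the Control values are coarse.

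The 3 forward cytosines with the lowest signed differences were in ND4L and 12S. Position 9943, the only listed forward cytosine of ND4L (a complex I subunit gene), had no methylated call in any Control library, from 24 to 150 calls each, which allows a level of 2% to 12.5%, and read 0.909% in Susceptible 3 and 0% in the other Susceptible libraries. In 12S, position 984 went from 1.23% ± 0.392 to 3.16% ± 0.565 and position 963 from 1.35% ± 0.501 to 3.38% ± 0.934. These 2 positions in 12S had 1905 to 5415 calls per library, and the groups were apart at both.

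The 3 reverse cytosines with the highest means over all libraries were in 16S. Position 1636 read 16.5%, 1.73%, 23.2%, 16.2% and 24.9% in Control libraries 2, 3, 4, 5 and 8 and 62.1%, 58.3%, 48.3% and 37.3% in Susceptible libraries 2, 3, 6 and 7, which was also the widest reverse difference. Positions 2503 and 2489 had means of 17.8% ± 6.89 and 45.2% ± 4.36, and of 16.5% ± 4.92 and 40.6% ± 6.94. Positions 2553 and 2521 rose from 8.24% ± 6.76 to 39.1% ± 8.35 and from 8.96% ± 6.19 to 39.5% ± 6.81. Within 16S the reverse levels thus ran from 0.881% to 17.8% in Control and from 3.85% to 51.5% in Susceptible means.

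The signed difference, Susceptible minus Control, was lowest on the reverse strand at position 9345 in COX3 (-2.49 points), 15466 in the D-loop and 3456 in ND1. Position 9345 was the only one of the 415 with a lower Susceptible than Control mean, 1.84% ± 0.676 against 4.33% ± 5.17. Control 8 alone read 13.2% there, and the groups overlapped. Position 3456 in ND1 had 6254 to 12759 calls per library and went from 0.846% ± 0.264 to 2.65% ± 0.587, with the groups apart.

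Calls and level ran in opposite directions along the genome on both strands: Spearman's rho between calls and level lay between -0.160 and -0.500 over the 192 forward cytosines and between -0.245 and -0.476 over the 223 reverse cytosines in single libraries. Cytosines of 1 library share reads, so these are descriptions. The group difference was present in every class of mean calls over all 9 libraries. Depth was not matched between the groups within a class. Forward cytosines under 300 calls had on average 121 calls in Control and 281 in Susceptible libraries. Those of 300 to 1000 calls had 306 and 713. Forward cytosines with a mean of 3000 or more calls went from 3.66% ± 0.410 to 12.2% ± 2.43, those of 300 to 1000 calls from 13.8% ± 3.37 to 40.9% ± 5.04, and those under 300 calls from 11.2% ± 2.05 to 43.3% ± 5.59. Reverse cytosines with 3000 or more calls, 154 of the 223, went from 2.48% ± 0.420 to 8.31% ± 1.92. The 19 of 300 to 1000 calls went from 8.92% ± 3.32 to 30.6% ± 4.79 and the 5 under 300 calls from 7.12% ± 3.74 to 20.5% ± 3.21, so the class with the fewest calls was not the highest there. In all 8 classes of strand and depth the groups were apart.

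The profile of levels along the genome was compared between libraries. Pearson's r between pairs of Susceptible libraries was 0.953 to 0.983 over forward and 0.924 to 0.984 over reverse cytosines. Between pairs of Control libraries it was 0.553 to 0.896 and 0.523 to 0.897. Among Control 2, 3 and 4, without Control 5 and Control 8, it was 0.8495 to 0.896 and 0.669 to 0.897. Libraries of different groups had values from 0.602 to 0.839 and from 0.511 to 0.916. These too are descriptions over cytosines that share reads.

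Genes outside the 11 regions followed the same direction. Of 37 mitochondrial genes in the RefSeq table (GRCm38.p6), 27 lay outside, and 17 of these had no listed cytosine. On the forward strand 9 genes had listed cytosines, and in 7 the groups were apart, higher in Susceptible libraries. On the reverse strand this was so in 9 of 10 genes. The tRNA gene for methionine, with 4 cytosines on each strand, went from 3.66% ± 2.01 to 26.4% ± 6.55 on the forward strand and from 3.13% ± 1.46 to 10.7% ± 2.63 on the reverse strand. ND3, a complex I subunit gene, went from 3.21% ± 1.40 to 14.2% ± 4.85 on the reverse strand. No test was made for these genes.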

How the data were processed

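The authors deposited 1 table per library with, for each CpG cytosine and strand, the count of calls and the percent read as methylated, as the file columns show; listed cytosines had 10 or more calls. Bismark, Bowtie, Picard and mm10 are named in the submitters' processing notes, with no version or role. DNA came from frozen punches and libraries from a Pico Methyl-seq kit, per the labels' protocols. An unconverted cytosine counts as methylated; conversion was not analysed here. Methylated calls were recovered as coverage times percent, which can be off by 1 call above 10000 calls. Levels are methylated over all calls, so deeply covered cytosines weigh more.

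Groups were compared with exact two-sided permutation tests over 126 assignments and Benjamini-Hochberg adjustment over the strands, the region and strand pairs, or the 9 regions; the threshold was 0.05. Single cytosines were fitted over the whole genome with a quasi-binomial logistic model (Python 3.11.15, numpy 2.4.6, scipy 1.17.1), with dispersions moderated across cytosines as in limma (3.58.1). The model was also run on simulated counts with a common spread for all cytosines, which does not show its power on these data. A permutation p-value is the share of assignments of these libraries with a difference at least as large as the observed one. P-values of the cytosine fits rest on the spread between these libraries only.

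The regions, lists and tests were chosen with earlier results of these data known. All 11 regions were named. On each strand the 3 cytosines with the highest mean, the 3 with the largest and the 3 with the lowest signed difference were named, as was any with a lower Susceptible mean. Genes outside the regions were named with 3 or more cytosines on a strand. Strand ratios and forward calls by region, and leaving out Control 5 and Control 8 together, were added after seeing the data.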

Additional observations from a re-analysis of the deposited data

Results flagged for a closer look

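Of 96 groups of library values examined, 4 had 1 library far from the rest, by a gap to its neighbour large against the range of the group. Chance gives about 1 in 20 such groups. In all 4 it was Control 3, the lowest Control library. Its forward level over the mitochondrial genome was 3.90%, the next Control library being at 5.71%, and over the CpGs listed on both strands the forward level was also 3.90%. In COX1 on the forward strand it read 3.21%, below 4.37%, and in 16S on the reverse strand 2.59%, below 3.96%. In each of these the library lay farther from the Susceptible group than the other Control libraries.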

How the results depend on the processing

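Over the alternatives run, both strands kept their direction and passed in each except the fit with the replicate block. The shared library numbers 2 and 3 gave no sign of pairing (correlation of deviations 0.0082 and -0.0077). Library pairs with different numbers ran from -0.038 to 0.060. With only 2 shared numbers this check cannot exclude a pairing. With the replicate block, 2 pairs cannot give an exact p below 0.5. The differences were then 25.6 points (forward), 7.93 points (reverse), 0.63 (log2 strand ratio) and 5.18 points (forward share), all at p = 0.5 (exact sign-flip test). Mitochondrial calls per 1000 autosomal calls differed by -0.624 in place of 0.212, the log2 strand ratio of 12S was 0.077, and 0 region levels, 0 region strand ratios and 0 forward call ratios passed.

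With each cytosine weighted equally, the log2 strand ratio was -0.10, COX3 reverse differed by -0.0478 points, 4 region contrasts passed in place of 0, and 0 region strand ratios in place of 4. The contrast of 16S forward was 0.068, and the log2 strand ratios of ND5 and CytB were -0.29 and -0.43. The CytB forward contrast was 0.53 with a minimum of 100 calls, 0.28 on log2 odds and 0.0072 without Control 5 and Control 8, and that of ND5 forward was 0.12 on log2 odds. Without the most covered 1% of cytosines the log2 call ratio of 16S was -0.032. Without Control 5 and Control 8 together, 0 region strand ratios and 0 call ratios passed. The cause of these changes was not tested, beyond the fewer libraries.

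With 1 library left out, the forward difference was 18.3 to 22.2 points and the reverse one 5.58 to 7.04. Region levels past the threshold were 19 each time. Region strand ratios passed in 0 regions each time and forward call ratios in 0 to 5, and the log2 call ratio of 12S ran from -0.028 to 0.031. Single cytosines called were 0 under each alternative. Sequence context was not run, since no genome sequence was used here. Few forward calls limit ND1, ND4, CytB and the D-loop in Control libraries.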
